A study of Mus musculus with 16 samples.

Results

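The transcriptome of mouse mesenchymal cells expressing histone H3.3 with 2 changes on the same tail, G34W and K36R, was compared with that of cells expressing histone H3.1 with G34W. Each group had 2 libraries. The genes compared were the 12215, of 20325 in the deposited table, whose value averaged at least 10 over these 4 libraries. All 16 libraries of the study came from C3H10T1/2 cells, an established mouse embryonic fibroblast line that can form fat, cartilage and bone cells. The cells received a lentivirus carrying a histone transgene for 2 days, followed by 4 days of selection in puromycin at 1.5 µg/ml, in every group. The 8 transgenes, with 2 libraries each, were H3.3 wild type, H3.3 G34W, H3.3 G34R, H3.3 K27R, H3.3 G34W with K27R, H3.3 G34W with K36R, unmutated H3.1 and H3.1 G34W. The labels describe overexpression and name neither a change to the endogenous histone genes nor cells without a transgene. Whether replicates are separate cultures is not stated in the labels, so the tests weigh each difference against a spread between samples that may be technical. Polyadenylated RNA was sequenced to an estimated 34.78 to 43.05 M reads in the 4 libraries compared, and 3 reads corresponded to values of 2.31 to 3.11.

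H3.3 and H3.1 are forms of histone H3 that differ in a few residues and in how they reach chromatin. H3.1 is deposited by the chaperone CAF-1 during DNA replication, whereas H3.3 is deposited throughout the cell cycle by HIRA and by DAXX with ATRX. G34W replaces a glycine that lies near lysine K36 with the bulky tryptophan, and it is the change found in giant cell tumour of bone. Methylation of K36 hinders the Polycomb complex PRC2 from methylating K27 on the same tail, and the arginine of K36R cannot take up lysine methylation. The 2 groups therefore share G34W and differ both in the histone variant and in K36R, and effects of these differences cannot be told apart in this comparison.

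The 4 libraries were not alike in their spread. The H3.3 G34W K36R pair, called the K36R libraries below, had a Pearson correlation of 0.996 across genes, and 82 of 12215 genes differed more than 2-fold between them on the scale of log2(value + 1). The H3.1 G34W pair had a correlation of 0.961, and 1718 genes differed more than 2-fold. A chi-square per degree of freedom, which is near 1 for libraries that differ by counting error alone, was 1.75 for the K36R pair and 236 for the H3.1 G34W pair. Replicate 1 of H3.1 G34W was closest to replicate 1 of H3.1 wild type (correlation 0.992), and replicate 2 was closest to replicate 2 of K36R (0.970). The mean of the K36R libraries differed more than 2-fold from H3.1 G34W replicate 1 at 1837 genes and from replicate 2 at 922 genes. Most group results below are therefore also given against either H3.1 G34W library, or as the values of both.

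Expression of the transgenes cannot be read from the table, which gives 1 value per gene and no allele. The H3.3 genes H3f3a and H3f3b showed no call, and whether their values include reads of a transgene is not known. H3f3a was 13489 and 13355 in the K36R libraries, against 11351 and 13769.8 with H3.1 G34W, and H3f3b was 29642 and 29621 against 24487 and 27488. The mesenchymal receptor gene Pdgfra was present in every library, at 6481 and 6599 with K36R and 1051 and 2312 with H3.1 G34W. The 15 mesenchymal surface markers listed summed to 286743 and 286342.5 with K36R. These sums lay between 346490 in H3.1 G34W replicate 1 and 218417 in replicate 2. Markers of other cell types were low. The F4/80 gene Emr1, the T cell gene Cd3e, the endothelial gene Emcn, the epithelial genes Epcam and Krt18, the neural genes Snap25 and Sox10, the muscle regulators Myod1 and Myog and the globin gene Hbb-b1 were at 0 in all 4 libraries. The summed level of 5 endothelial markers was 333 to 395 with K36R and 74.6 to 229 with H3.1 G34W, nearly all of it from the receptor gene Tek. The summed level of 5 neural markers was 154 to 158 against 44.6 to 70.8, mostly from the tubulin gene Tubb3. The sum over 8 macrophage and leukocyte markers was 250.4 to 285 against 198 to 246, and the sum over 6 epithelial markers was 79.2 to 84.6 against 51.8 to 84.7. The 5 skeletal muscle markers summed to 70.4 to 80.2 with K36R, between 109.8 in H3.1 G34W replicate 1 and 12.3 in replicate 2, and the 3 erythroid markers summed to 5.63 to 11.7 against 10.4 to 10.7. Only 8 members of these marker lists passed the minimum level, and none of the 8 was called, although without H3.1 G34W replicate 2 an endothelial and a neural marker were called higher, and without replicate 1 a skeletal muscle marker was. Outside the lists, and picked after their values were seen, skeletal muscle genes were called higher with K36R, namely the troponin genes Tnnt3 (59.7 and 49.4 against 4.14 and 4.62) and Tnni1 (42.0 and 32.6 against 4.14 and 15.4), the actinin gene Actn3 (238 and 233 against 46.2 and 43.8) and the sodium channel gene Scn4a (29.3 and 27.3 against 0 in both). The part of these marker levels in the results below was not tested.

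Most genes that passed the test for a difference between the groups were higher in the K36R libraries. Genes of the extracellular matrix and of cell signalling were among them. The fetal growth factor Igf2, the immediate early genes Fos and Fosb, the collagen genes Col6a1 and Col6a2, a cluster of small leucine-rich proteoglycan genes, and modulators of Wnt signalling were higher with K36R. Fewer genes were lower, among them the MAP kinase phosphatase gene Dusp4 and the histone H3 genes Hist1h3b and Hist1h3d. In all, 378 genes (3.09%) passed an adjusted p of 0.05 in limma, 307 higher (2.51%) and 71 lower (0.581%) with K36R, and these are the genes named called, rose or fell below. The 2.51% and 0.581% are the shares of all tested genes beside which the counts of each gene list below stand. The median log2 fold change was 2.05 over the genes called higher and -1.31 over those called lower, and it was -0.02 over all tested genes. Of the genes called higher, 273 changed more than 2-fold, 160 more than 4-fold and 22 more than 16-fold. Of those called lower, 46 changed more than 2-fold and 21 more than 4-fold. Without overlap between the libraries of the groups, 3027 genes (24.8%) were higher and 3452 (28.3%) lower although 81.2% of the calls were higher. After quantile normalization in place of the deposited scaling, 438 genes were called, of which 67.8% were higher (297 higher and 141 lower).

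**Figure D1:**
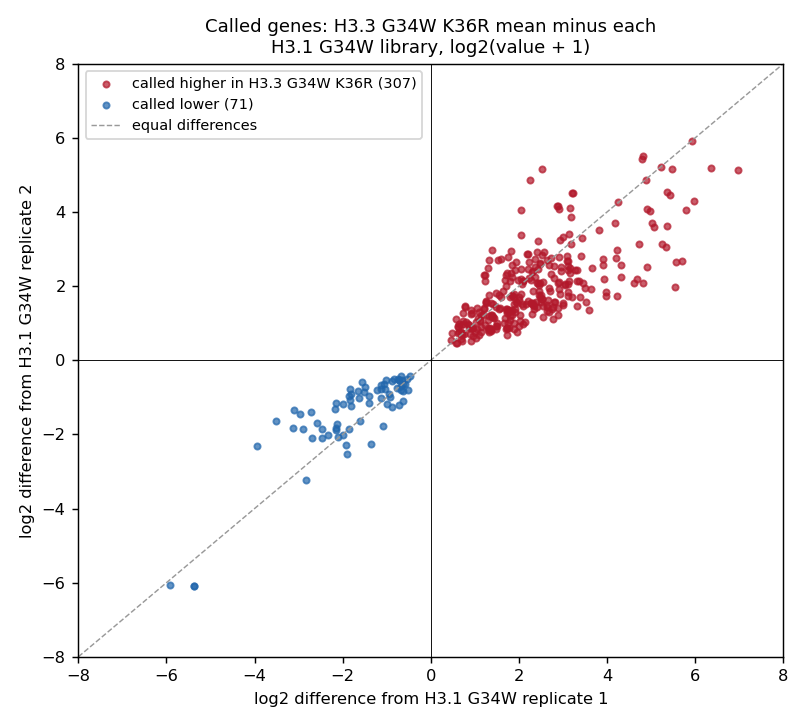
Each point is 1 of the 378 called genes. The x axis is the mean of the K36R libraries minus H3.1 G34W replicate 1 and the y axis the same mean minus replicate 2, both on log2(value + 1). The 307 genes called higher lie above 0 on both axes and the 71 called lower lie below 0 on both, and many points lie off the dashed line of equal differences.

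The count of calls depended on which libraries set the spread. With the 2 compared groups fitted alone no gene was called in limma (lowest adjusted p = 0.0993), although 1761 genes had an unadjusted p under 0.05, against 1992 in the fit of all groups. With each of the 5 groups of close libraries, K36R among them, counted as 1 sample, no gene was called either (lowest adjusted p = 0.211, and 404 genes at an unadjusted p under 0.05). Without K36R replicate 1 or 2 the counts were 63 and 65, in fits that take the single K36R library left to be as variable as the rest. Without H3.1 G34W replicate 1, 351 genes were called, of which 210 were among the 378, and without replicate 2, 1695 genes were called, of which 356 were among the 378. Called in all 4 of these leave-outs and in the full fit were 58 genes, 54 higher and 4 lower, and they included Igf2, Igf1, Col6a1, Col6a2, Col27a1, Efemp1, Omd, Islr, Klf2, Smad6, Snai1 and Serping1 among the higher genes and the 4 lower ones were H2-Q9, Hsd11b1 and the predicted genes Gm14430 and Gm14434, whose values are identical. The examples among the 54 were chosen after their values were seen.

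**Figure D2:**
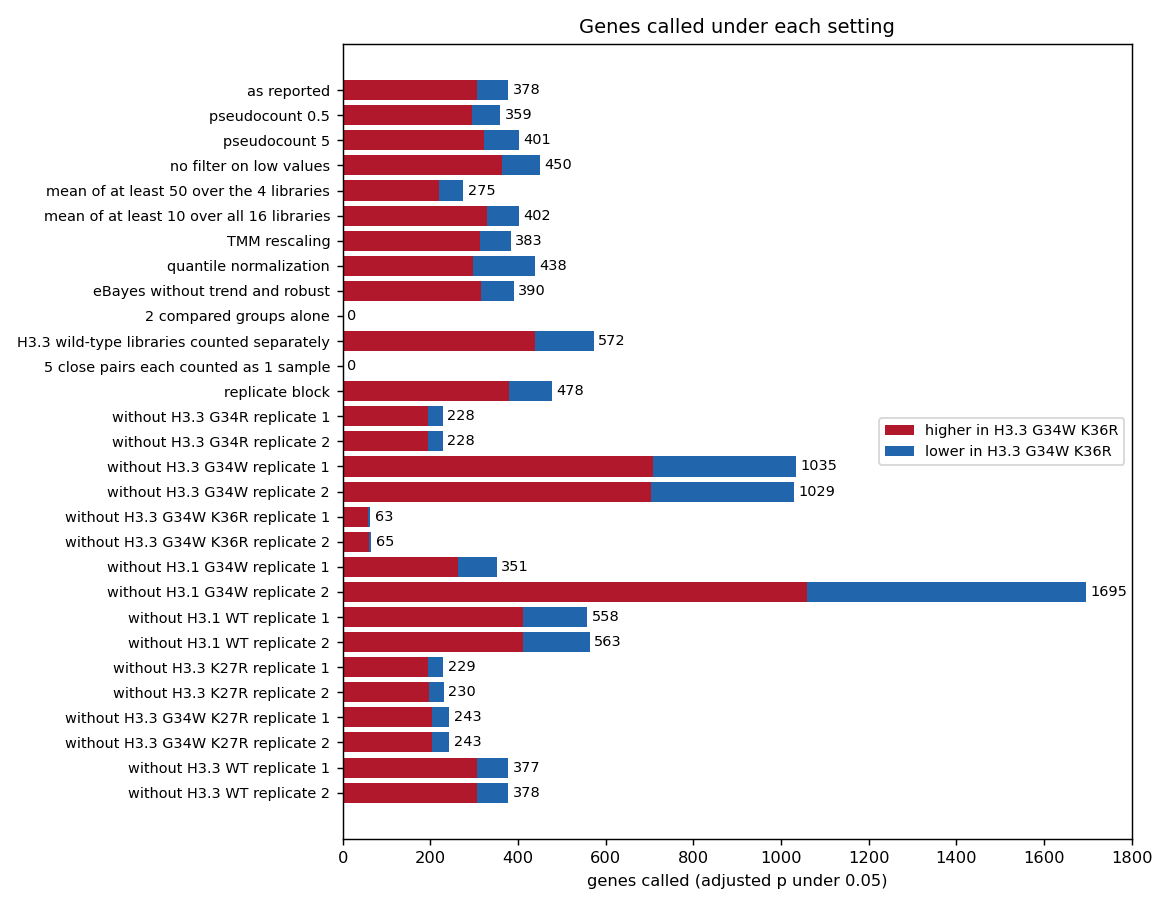
Bars give the number of genes called under each setting, split into higher (red) and lower (blue) with K36R, on an axis that starts at 0. The count as reported is 378, and the counts run from 0, for the 2 groups alone and for close pairs counted as 1 sample, to 1695 without H3.1 G34W replicate 2.

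Among the largest gains were secreted proteins and membrane proteins, several of them near absent with H3.1 G34W. Igf2, which encodes insulin-like growth factor 2, stood at 1552 and 1556 in the K36R libraries, against 11.4 and 43.1 with H3.1 G34W (log2 fold change 6.06 ± 0.72 SE, limma adjusted p = 0.00199). It was higher in the K36R libraries than in any of the other 14 libraries, of which the H3.1 wild-type pair was at 12.9 and 12.7 and the highest, an H3.3 library, at 1249.7. Steap4, a metalloreductase gene, was 64.6 and 55.5 against 0 in both H3.1 G34W libraries, at least 22.2-fold higher over a floor of 3 reads per library. Tnn, which encodes the matrix protein tenascin N, was 96.9 and 82.0 against 1.04 and 1.54, a ratio of 69.4 with a counting interval of 22.6 to 329 (95%), since the low group held 3 reads in all. Stc1, which encodes the hormone stanniocalcin 1, was 117 and 114 against 3.11 and 1.54, a ratio of 49.7 with an interval of 22.1 to 162. In all of these the K36R libraries lay close together and far above both H3.1 G34W libraries. Fmo1, a flavin monooxygenase gene, was 261 and 257 against 3.11 and 12.3. Serping1, which encodes the C1 inhibitor of complement, was 333 and 383 against 7.25 and 15.4. The 2 H3.1 G34W libraries differed at least 2-fold in both genes, and both stayed below the K36R libraries. Cacna1h, a T-type calcium channel gene, was 191 and 151 against 2.07 and 9.24, and Slc26a7, an anion transporter gene, was 133 and 124 against 3.11 and 6.93. Entpd3, which encodes an ectonucleotidase, was 116 and 153 against 3.11 and 9.24, and no other H3.3 library exceeded 21.6. Islr, a gene of a leucine-rich repeat protein of mesenchymal stromal cells, was 2916 and 2967 against 87.0 and 242 (log2 fold change 4.33 ± 0.38 SE, limma adjusted p = 0.00046).

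**Figure D3:**
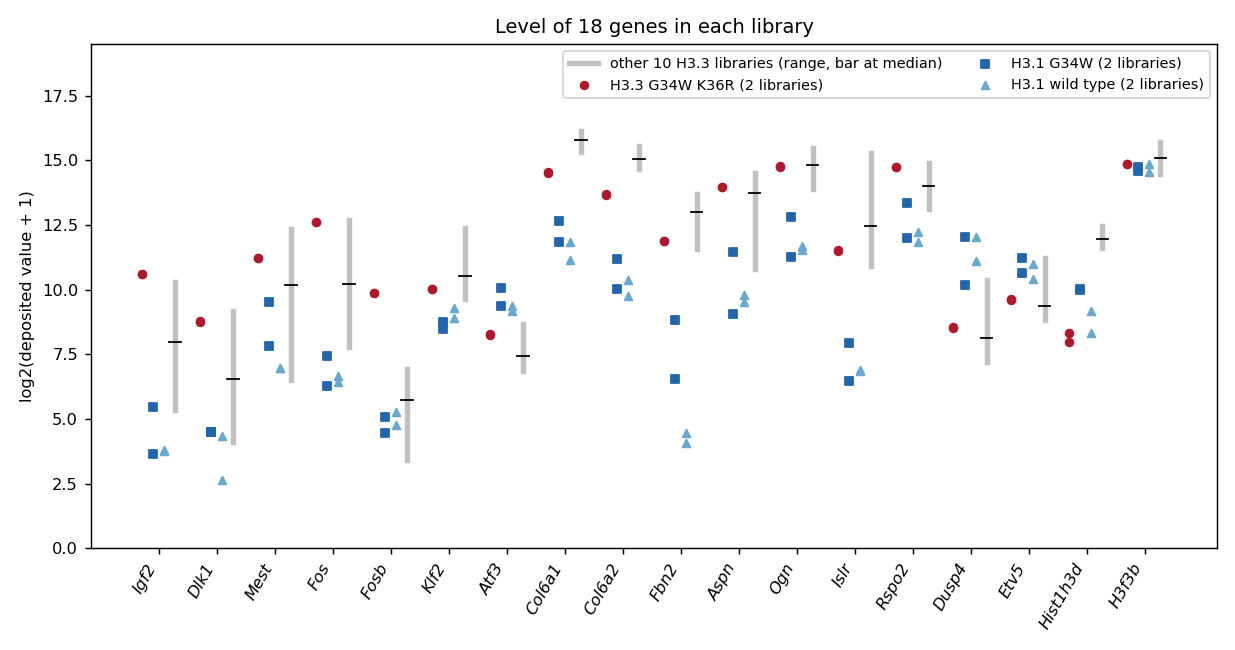
Points give log2(deposited value + 1) in single libraries of H3.3 G34W K36R, H3.1 G34W and unmutated H3.1 for 18 genes, and grey lines give the range of the other 10 H3.3 libraries with a bar at their median. The genes were picked for this plot after their values were seen. Igf2 and Fosb in the K36R libraries lie above all other libraries, whereas Col6a1 and Col6a2 lie between the H3.1 libraries and the other H3.3 libraries.

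The small leucine-rich proteoglycans, which bind collagen fibrils and set their diameter, had the highest median of the matrix groups. Of 10 tested members, 5 rose and none fell, with a median log2 fold change of 2.18 against -0.02 over all genes. The number called was 3 without H3.1 G34W replicate 1, 7 without replicate 2, and 1 and 1 without K36R replicate 1 or 2. Ogn, which encodes osteoglycin, was 27587 and 27938 in the K36R libraries, against 2468 and 7139 in the H3.1 G34W libraries (log2 fold change 2.73 ± 0.40 SE, limma adjusted p = 0.0064). Aspn, which encodes asporin, was 16204 and 16194 against 536 and 2809 (3.72 ± 0.55 SE, 0.00631, the same quantities). Omd, which encodes osteomodulin, was 1792 and 1778 against 322 and 492. Ecm2, a related matrix gene, was 121 and 129 against 17.1 and 25.8. Aspn and Ogn differed several-fold between the H3.1 G34W libraries, with replicate 2 the higher, while Omd and Ecm2 varied less. Ecm2, Aspn, Omd and Ogn are neighbours on the mouse genome, each next to the other among the tested genes. Fmod, which encodes fibromodulin and lies elsewhere, was 113 and 110.2 against 5.18 and 7.70. In the other 10 H3.3 libraries the level of Ogn ran from 15241 to 45713 (median 29244), which includes the K36R level, and that of Ecm2 from 439.7 to 2474 (median 739), which lies wholly above it.

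Elastic fibre genes, which encode fibrillins, fibulins, elastin and the proteins that assemble them, held 7 called members of 19, all higher with K36R (median 0.75 on the log2 scale). Leaving out H3.1 G34W replicate 1 gave 7 higher and 0 lower, leaving out replicate 2 gave 10 higher and 1 lower, and leaving out either K36R library gave 1 and 1 calls. Fbn2, which encodes fibrillin 2, was 3776 and 3777 against 92.2 and 449.6 (log2 fold change 4.20 ± 0.60 SE, limma adjusted p = 0.00545). Efemp1, which encodes fibulin 3, was 170.2 and 157 against 14.5 and 22.3, and Mfap5, a microfibril gene, was 955 and 969 against 267 and 203. Fbln1, which encodes fibulin 1, was 149.7 and 134 against 56.0 and 20.8. The groups did not overlap in any of these, and the H3.1 G34W libraries were farthest apart in Fbn2. Elastin itself, Eln, was 63.7 and 75.8 against 10.4 and 26.9 (1.99 ± 0.33 SE on the log2 scale, limma adjusted p = 0.0103). Both groups were far below the other 10 H3.3 libraries, in which Eln ran from 9424 to 326260.3 (median 60138).

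Of 20 tested collagen chain genes, 4 rose and none fell (median 0.50 on the log2 scale). Calls numbered 4 higher and 0 lower without H3.1 G34W replicate 1, 6 higher and 2 lower without replicate 2, and 3 and 3 without K36R replicate 1 or 2. Col6a1, the gene of a chain of the beaded-filament collagen VI, was 24011 and 23480.3 in the K36R libraries, against 3649 and 6530.1 in the H3.1 G34W libraries (log2 fold change 2.28 ± 0.28 SE, limma adjusted p = 0.00246). Col6a2, which encodes its partner chain, was 13360.2 and 12837 against 1036 and 2313 (3.08 ± 0.31 SE, 0.0009, the same quantities). Both genes showed 3 separate levels, with the H3.1 libraries lowest, the K36R libraries between, and the other 10 H3.3 libraries highest, at 41337 to 72578 (median 57205) for Col6a1 and 26027 to 48012 (median 34283) for Col6a2. Col27a1, a fibrillar collagen gene of cartilage, was 384 and 407 against 118 and 76.2, and Col8a2, a gene of the network-forming collagen VIII, was 812 and 774 against 29.0 and 88.5. Col6a1 and Col6a2 are neighbours on chromosome 10. Their promoters are shown because they moved together, as the 250 bases before the annotated start in RefSeq (build GRCm38.p6, both on the minus strand, printed 5′ to 3′ along the gene), at chr10:76726045-76726294 for Col6a1 and chr10:76623405-76623654 for Col6a2. Col6a2 has 2 starts in RefSeq, and the first was used. Capitals mark matches on either strand to 4 motifs, the TATA box TATAAA, the GC box GGGCGG, the AP-1 site TGACTCA and the cAMP response element TGACGTCA, the last 2 of which share TGAC at one end.
Col6a1: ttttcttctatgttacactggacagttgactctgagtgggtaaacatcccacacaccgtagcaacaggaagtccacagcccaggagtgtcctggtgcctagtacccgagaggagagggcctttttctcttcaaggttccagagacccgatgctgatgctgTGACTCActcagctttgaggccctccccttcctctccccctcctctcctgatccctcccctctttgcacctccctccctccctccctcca
Col6a2: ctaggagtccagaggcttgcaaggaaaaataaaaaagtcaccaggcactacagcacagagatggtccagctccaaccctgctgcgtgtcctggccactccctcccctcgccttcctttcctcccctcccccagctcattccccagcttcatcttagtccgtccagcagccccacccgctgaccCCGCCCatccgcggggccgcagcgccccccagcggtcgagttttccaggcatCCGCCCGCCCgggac
The Col6a1 window held 1 AP-1 site, starting at -90 from the transcription start, and the Col6a2 window held 3 GC boxes, 2 of which overlap. Of 27025 promoters of this length in RefSeq, 4.43% held an AP-1 site and 32.9% a GC box. Among those of the 8712 tested genes matched by symbol, the shares were 3.06% and 59.9%. These matches describe the sequence and are not known sites of binding in these cells.

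Matrix proteases and their inhibitors had 2 called members of 21, both higher (9.52%, against 2.51% of all genes). With H3.1 G34W replicate 1 left out the calls were 3 higher and 0 lower, with replicate 2 left out 5 higher and 2 lower, and with K36R replicate 1 or 2 left out 1 and 1. Serpine2, which encodes the thrombin and urokinase inhibitor protease nexin 1, was 5228 and 5444 with K36R and 1417 and 2169.7 with H3.1 G34W, and the other 10 H3.3 libraries lay above both groups, at 32252 to 65396 (median 53196). Adamts2, which encodes the procollagen N-proteinase, was 3629 and 3816 against 2216 and 2259. Of 29 integrin and laminin chain genes, 4 rose (13.8%) and 1 fell (3.45%, against 0.581% of all genes). The number called was 2 higher and 0 lower without H3.1 G34W replicate 1, 5 higher and 3 lower without replicate 2, and 0 and 0 without K36R replicate 1 or 2. Itga1, which encodes a collagen-binding integrin chain, was 1676 and 1799 against 742 and 394, and Lama3, a laminin chain gene, was 26.4 and 26.4 against 2.07 and 3.85. Lamb2, another laminin chain gene, rose less, from 7408 and 8419.6 to 13803 and 13606 (log2 fold change 0.80 ± 0.17 SE, limma adjusted p = 0.034). Itgb7, the integrin beta 7 gene, fell and was 69.5 and 53.8 with K36R against 529 and 156. The level of Itgb7 with K36R was within the range of the other H3.3 libraries, 25.3 to 108 (median 62.6).

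Genes of several developmental signalling pathways were higher with K36R than with H3.1 G34W. Wnt ligands act through Frizzled and LRP receptors to stabilise beta-catenin, and R-spondins amplify them. Of 28 tested Wnt genes, 7 rose and none fell, with a median log2 fold change of 0.93. Leaving out H3.1 G34W replicate 1 gave 3, leaving out replicate 2 gave 10, and leaving out either K36R library gave 0 and 1 calls. The R-spondin gene Rspo2 was 27211 and 27386 with K36R and 4049.8 and 10475 with H3.1 G34W (log2 fold change 2.07 ± 0.39 SE, limma adjusted p = 0.0203). Sfrp2, a secreted Wnt modulator, was 61.6 and 52.9 against 5.18 and 1.54. Of the receptors, Lrp5 was 3165 and 3103 against 919 and 1256 and Fzd3 was 289 and 295 against 142 and 142. The nuclear effector Tcf7 was 35.2 and 52.0 against 12.4 and 10.0. In Rspo2 and Sfrp2 the H3.1 G34W libraries differed more than 2-fold from each other, and in Fzd3 they were equal to within 1 unit. Sfrp2, Lrp5 and Tcf7 with K36R were below each of the other 10 H3.3 libraries, whose lowest values were 125, 3905 and 91.0. Rspo2 and Fzd3 with K36R lay within the range of those libraries, 8955 to 30647 and 139 to 642.

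Notch signalling runs from a membrane ligand to a receptor on the next cell, and Hedgehog signalling through Patched and its co-receptors. Of 21 tested members, 4 rose and none fell (median 0.65 on the log2 scale). Calls numbered 3 without H3.1 G34W replicate 1, 7 without replicate 2, and 0 and 0 without K36R replicate 1 or 2. The ligand gene Jag1 was 3518 and 3407 against 1325 and 1547, the receptor gene Notch1 was 1433 and 1388 against 419.6 and 708, and the target Hey1 was 83.2 and 78.5 against 33.2 and 26.2. Boc, a Hedgehog co-receptor gene, was 4062 and 4104 against 409 and 1489.9 (log2 fold change 2.38 ± 0.45 SE, limma adjusted p = 0.0209). Boc was the gene of these 4 in which the H3.1 G34W libraries lay farthest apart, and replicate 2 was again the nearer to K36R.

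In the TGF-beta and BMP pathway, whose ligands signal through SMAD proteins, 4 of 29 tested genes rose and none fell, and the median log2 fold change was 0.29. With H3.1 G34W replicate 1 left out the calls were 4 higher and 0 lower, with replicate 2 left out 5 higher and 4 lower, and with K36R replicate 1 or 2 left out 1 and 1. The ligand gene Bmp4 was 9961 and 9836 with K36R and 4367 and 4254 with H3.1 G34W. The feedback inhibitor Smad6 was 1932 and 1973 against 789 and 923 (log2 fold change 1.19 ± 0.14 SE, limma adjusted p = 0.00206), and the BMP target Id3 was 6293 and 6173 against 2461 and 3415. Tgfb2, another ligand gene, showed the smallest change, from 1169 and 1113 to 1653 and 1572. The H3.1 G34W libraries were less than 1.5-fold apart in all 4 genes.

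The insulin-like growth factor axis consists of 2 ligands, their receptors and a family of binding proteins. Of 15 tested members, 4 rose and none fell, while the median log2 fold change was -0.02, at the median of all genes, and the other members gave no call. The number called was 4 without H3.1 G34W replicate 1, 5 without replicate 2, and 3 and 3 without K36R replicate 1 or 2. Besides Igf2, its fellow ligand gene Igf1 was 149 and 135 against 18.7 and 6.93 (log2 fold change 3.51 ± 0.45 SE, limma adjusted p = 0.00284), and the binding protein gene Igfbp2 was 679.9 and 697 against 229 and 103. Igf1 with K36R remained below each of the other 10 H3.3 libraries, at 1216 to 11137 (median 4328), the reverse of the order for Igf2. The list also holds Stc1, described above, which encodes an inhibitor of IGF-binding protein cleavage. Igf2 is also imprinted, which means that the allele of 1 parent is silent. Of 14 tested imprinted genes, 3 rose and none fell (median 0.51). Leaving out H3.1 G34W replicate 1 gave 3, leaving out replicate 2 gave 3, and leaving out either K36R library gave 1 and 1 calls. Dlk1, which encodes an inhibitor of fat cell formation, was 441 and 425 against 21.8 and 21.6 (log2 fold change 4.26 ± 0.64 SE, limma adjusted p = 0.00685). Mest, another imprinted gene, was 2365 and 2393 against 226 and 731, with the H3.1 G34W libraries more than 3-fold apart and both below K36R.

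Immediate early genes, whose transcription follows growth factor or stress signals within minutes, changed in both directions. Of 25 tested members, 3 rose and 1 fell (median 0.56 on the log2 scale). Calls numbered 4 higher and 1 lower without H3.1 G34W replicate 1, 3 higher and 5 lower without replicate 2, and 1 and 1 without K36R replicate 1 or 2. Fos, which encodes a subunit of the transcription factor AP-1, was 6305 and 6252 in the K36R libraries, against 75.9 and 170.1 in the H3.1 G34W libraries (log2 fold change 5.77 ± 1.07 SE, limma adjusted p = 0.0178). Fosb, which encodes a related subunit, was 935 and 948 against 33.2 and 20.8 (5.11 ± 0.73 SE, 0.00548, the same quantities). The K36R libraries were above all 14 other libraries in Fosb, while Fos in the other 10 H3.3 libraries ran from 218 to 6655 (median 1189). Klf2, a transcription factor gene, was 1041 and 1044 against 435 and 356. Atf3, a stress-induced transcription factor gene, fell and was 304 and 314 with K36R against 656 and 1067 with H3.1 G34W (log2 fold change -1.43 ± 0.23 SE, limma adjusted p = 0.00816). The H3.1 G34W libraries were above all 14 others in Atf3. The promoters of Fos, Fosb and Atf3 are shown because these genes are usually induced together and here moved apart, as the 250 bases before the RefSeq start (build GRCm38.p6), at chr12:85473640-85473889 on the plus strand for Fos, chr7:19310046-19310295 on the minus strand for Fosb and chr1:191183334-191183583 on the minus strand for Atf3. They are printed 5′ to 3′ along the gene, with the same 4 motifs in capitals.
Fos: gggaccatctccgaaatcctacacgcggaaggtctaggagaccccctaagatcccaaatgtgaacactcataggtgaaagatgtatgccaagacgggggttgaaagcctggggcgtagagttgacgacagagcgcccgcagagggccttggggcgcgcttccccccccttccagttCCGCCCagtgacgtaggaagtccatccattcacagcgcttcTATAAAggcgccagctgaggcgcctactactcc
Fosb: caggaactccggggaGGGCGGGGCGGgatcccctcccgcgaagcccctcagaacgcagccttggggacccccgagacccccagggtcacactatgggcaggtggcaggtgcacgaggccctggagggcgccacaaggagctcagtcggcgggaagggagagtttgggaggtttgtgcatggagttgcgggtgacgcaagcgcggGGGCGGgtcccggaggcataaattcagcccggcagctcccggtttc
Atf3: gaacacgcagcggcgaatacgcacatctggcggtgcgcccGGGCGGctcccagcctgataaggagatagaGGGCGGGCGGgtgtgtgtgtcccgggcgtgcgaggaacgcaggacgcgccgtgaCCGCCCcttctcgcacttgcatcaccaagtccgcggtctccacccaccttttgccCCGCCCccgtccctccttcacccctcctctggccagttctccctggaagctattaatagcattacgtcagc
The Fos window held 1 TATA box, starting at -33 from the transcription start, and 1 GC box. The Fosb window held 3 GC boxes and the Atf3 window 5. A TATA box of these letters was found in 13.0% of the 27025 promoters, and in 6.29% of those of the 8712 tested genes matched by symbol, which held a GC box in 59.9%. No window of the 3 held the AP-1 site or the cAMP response element in these exact letters.

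Fibroblast growth factors signal through receptor kinases and the MAP kinases, which induce their own feedback inhibitors. Of 23 tested members, 1 rose and 3 fell, with a median log2 fold change of -0.28. With H3.1 G34W replicate 1 left out the calls were 1 higher and 0 lower, with replicate 2 left out 2 higher and 9 lower, and with K36R replicate 1 or 2 left out 0 and 0. The feedback phosphatase gene Dusp4 was 366 and 372 with K36R and 4204 and 1160.3 with H3.1 G34W (log2 fold change -2.58 ± 0.52 SE, limma adjusted p = 0.0265). Etv5, an ETS factor gene downstream of the MAP kinases, was 791 and 781 against 2418 and 1586, and its relative Etv1 was 242 and 216 against 608 and 448. In these 3 genes replicate 1 of H3.1 G34W was the higher, most of all in Dusp4, and both replicates exceeded K36R. The receptor gene Fgfr2 went the other way, at 1954 and 1907 against 1011 and 1054 (0.90 ± 0.12 SE on the log2 scale, limma adjusted p = 0.00315).

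Some immune genes were higher with K36R, and H3.1 G34W replicate 1 was lower than the other 3 libraries in the median of the interferon and MHC class I lists. Of 47 tested interferon-stimulated genes, 3 rose (6.38%, against 2.51% of all genes) and none fell, and the median was 0.71 on the log2 scale. The median difference of K36R was 1.26 from H3.1 G34W replicate 1 and 0.05 from replicate 2. The number called was 3 higher and 1 lower without H3.1 G34W replicate 1, 28 higher and 1 lower without replicate 2, and 0 and 0 without K36R replicate 1 or 2. Nlrc5, a regulator of MHC class I genes, was 105 and 118 against 18.7 and 34.5, the guanylate-binding protein gene Gbp3 was 88.0 and 94.6 against 17.6 and 31.6, and its relative Gbp2 was 353 and 348 against 104 and 144. Mx1, an antiviral gene, was at 13.8 and 10.9 against 11.4 and 11.2 and was not called. Of 16 genes of MHC class I presentation, Nlrc5 and H2-Q7 rose (12.5%). Leaving out H3.1 G34W replicate 1 gave 2, leaving out replicate 2 gave 6, and leaving out either K36R library gave 0 and 0 calls. H2-Q7 was 96.7 and 107 with K36R and 1.71 and 10.6 with H3.1 G34W, whereas its near-identical neighbour H2-Q9 was 0 in both K36R libraries and 59.3 and 66.2 with H3.1 G34W, at least 22.5-fold lower over the floor of 3 reads per library. Reads of H2-Q7 and H2-Q9 can be split between the copies by the authors' counting, so the opposite directions are uncertain. In the 27 chemokine and cytokine genes of NF-kB signalling, of which 21 were tested, Il6 and Ccl7 rose (9.52%) and none fell. Calls numbered 0 higher and 0 lower without H3.1 G34W replicate 1, 6 higher and 2 lower without replicate 2, and 0 and 0 without K36R replicate 1 or 2. Il6, the gene of interleukin 6, was 88.0 and 111 against 22.8 and 23.1, and the monocyte chemokine gene Ccl7 was 783 and 692 against 194 and 279. Its neighbour Ccl2 was 1025 and 934 with K36R, between the H3.1 G34W libraries at 1578 and 578, and was not called. Serpina3g, a serpin gene induced by interferon in leukocytes, was 874 and 854 against 78.3 and 205 (log2 fold change 2.76 ± 0.51 SE, limma adjusted p = 0.0181). The near-copy Serpina3f was also called higher, and these 2 genes can share reads.

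The fates open to C3H10T1/2 cells were each represented by a few calls. Of 16 tested genes of adipocyte differentiation, 3 rose (18.75%, against 2.51% of all genes) and none fell (median 0.49). With H3.1 G34W replicate 1 left out the calls were 2, with replicate 2 left out 5, and with K36R replicate 1 or 2 left out 0 and 0. Zfp423, a preadipocyte transcription factor gene, was 54.8 and 40.6 against 6.22 and 6.16, the amine oxidase gene Aoc3 was 1625 and 1702 against 281 and 219, and Cebpd, an early adipogenic factor gene, was 2756 and 2927 against 915 and 775. Pparg, the central regulator of fat cells, was 1107 and 1223 against 889 and 874 and was not called, and Adipoq, which encodes the fat cell hormone adiponectin, was at no more than 3 reads in each of the 4 libraries. Of 14 tested cartilage genes, 2 rose (14.3%) and none fell. Matn4, a matrilin gene, rose to 225 and 197 from 10.4 and 26.2. Comp, a gene of cartilage matrix, rose to 34.2 and 52.9 from 17.6 and 21.6. The regulator Sox9 was 5856 and 5907 against 3679 and 4037 and was not called (limma adjusted p = 0.061). The number called was 1 without H3.1 G34W replicate 1, 3 without replicate 2, and 1 and 1 without K36R replicate 1 or 2. Of 10 osteoblast genes only Omd, described above, rose, and the bone regulator Runx2 was 2426 and 2449 against 1531 and 1945 (limma adjusted p = 0.0979). Over these 10 genes the median log2 difference of K36R was -0.04 from H3.1 G34W replicate 1 and 0.16 from replicate 2. Of 21 contractile genes 3 rose (14.3%) and none fell. The median log2 fold change of the list was 0.53, and it was 1.11 without H3.1 G34W replicate 1 and -0.09 without replicate 2. Leaving out H3.1 G34W replicate 1 gave 7 higher and 0 lower, leaving out replicate 2 gave 4 higher and 2 lower, and leaving out either K36R library gave 0 and 0 calls. Cnn1, the calponin gene, was 78.3 and 71.4 against 7.25 and 2.31, Mylk, the myosin light chain kinase gene, was 834 and 879 against 161 and 199, and the desmin gene Des was 41.1 and 34.4 against 10.4 and 14.6. Smooth muscle actin, Acta2, was 153841 and 152871 with K36R, between H3.1 G34W replicate 1 and replicate 2 at 193914 and 57498. Of 13 tested mesenchymal surface markers, Pdgfra and Eng rose (15.4%) and none fell. The log2 fold change was above 0 in 9 of the 13, with a median of 0.33. Eng, the endoglin gene, was 1021 and 974 against 353 and 495. Calls numbered 0 higher and 0 lower without H3.1 G34W replicate 1, 2 higher and 1 lower without replicate 2, and 0 and 0 without K36R replicate 1 or 2.

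Axon guidance genes, which also guide vessels and mesenchymal cells, had 2 called members of 36, both higher (5.56%, against 2.51% of all genes). With H3.1 G34W replicate 1 left out the calls were 2 higher and 0 lower, with replicate 2 left out 6 higher and 3 lower, and with K36R replicate 1 or 2 left out 0 and 0. Slit3 was 239.7 and 256 against 11.4 and 51.6, with the H3.1 G34W libraries more than 4-fold apart, and Sema4d was 30.3 and 21.2 against 2.07 and 3.08, a ratio of 9.99 with a counting interval of 4.15 to 27.4. Of 33 mesodermal and limb transcription factors 1 rose (3.03%, near the share of all genes), Prrx2, from 2098 and 1668 to 3224 and 3356. The number called was 1 without H3.1 G34W replicate 1, 6 without replicate 2, and 0 and 0 without K36R replicate 1 or 2. None of 10 tested Hox genes was called, and the nearest to the threshold was Hoxa2 at 658 and 737 against 274 and 437 (limma adjusted p = 0.0561). Over the Hox genes the median log2 difference of K36R was 0.37 from H3.1 G34W replicate 1 and 0.18 from replicate 2. None of 15 cadherins was called either. The atypical cadherin gene Fat4 was 16052 and 15908 against 5414 and 3947 (limma adjusted p = 0.0936).

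The 71 genes that fell gave a call in 7 lists, and the 307 that rose gave a call in 22. Of 31 tested replication-dependent histone genes, 2 fell (6.45%, against 0.581% of all genes) and none rose. Both were H3 genes. Hist1h3b was 401 and 279 in the K36R libraries, against 2506 and 1212 in the H3.1 G34W libraries (log2 fold change -2.38 ± 0.52 SE, limma adjusted p = 0.0388). Hist1h3d was 248 and 322 against 1032 and 1026 (-1.86 ± 0.29 SE, 0.00753, the same quantities). The K36R libraries were below all 14 others in both genes. In Hist1h3d they were barely so, since the H3.1 wild-type libraries were at 572 and 323 and K36R replicate 2 at 322. Hist1h3d ran from 3108 to 5711 (median 3974) in the other H3.3 libraries. Messages of these genes mostly lack a poly(A) tail, so libraries from polyadenylated RNA hold a part of them, and their near-identical copies can share reads. The H3.1 G34W cells carried an H3.1 transgene. Whether the values of Hist1h3b and Hist1h3d include its reads is not known, so these falls cannot be assigned to the endogenous genes. Without H3.1 G34W replicate 1 the number called lower was 1, and without replicate 2 it was 3, with 2 called higher, while without K36R replicate 1 or 2 it was 0 and 1.

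Of 17 metallothionein and NRF2 target genes, which protect against metals and oxidants, Txnrd1 and Gsr fell (11.8%) and none rose. No gene of the list was called without H3.1 G34W replicate 1 or without either K36R library, and without H3.1 G34W replicate 2 it held 4 genes called lower. Txnrd1, the thioredoxin reductase gene, was 7977 and 7916 against 16129.8 and 11542 (log2 fold change -0.78 ± 0.18 SE, limma adjusted p = 0.0474), and Gsr, the glutathione reductase gene, was 1574 and 1636 against 2846 and 2262. Of 31 glycolytic and hypoxia genes the hexokinase gene Hk2 fell, from 3364 and 1915 to 1049.7 and 1086. It was the only call (3.23%, against 0.581% of all genes). The list held 0 genes called higher and 1 lower without H3.1 G34W replicate 1, 2 and 2 without replicate 2, and 0 and 0 without either K36R library. The other large falls were in genes of varied function. Havcr2, which encodes the receptor TIM-3, was 13.7 and 7.93 against 99.5 and 40.0, Tec, a tyrosine kinase gene, was 16.6 and 20.3 against 107 and 69.3, and Vtcn1, which encodes the checkpoint ligand B7-H4, was 19.6 and 22.04 against 80.8 and 126. Kcnk2, a potassium channel gene, was 49.9 and 54.7 against 417 and 146, and Slc22a23, a gene of the organic ion transporter family, was 132 and 102 against 653 and 503. Fam84b was 116 and 131 against 539.8 and 523 and Fam110c was 33.3 and 26.4 against 183 and 97.8. In Havcr2, Kcnk2 and Itgb7 the H3.1 G34W libraries were more than 2-fold apart, with replicate 1 the higher, whereas in Fam84b they were close.

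**Figure D4:**
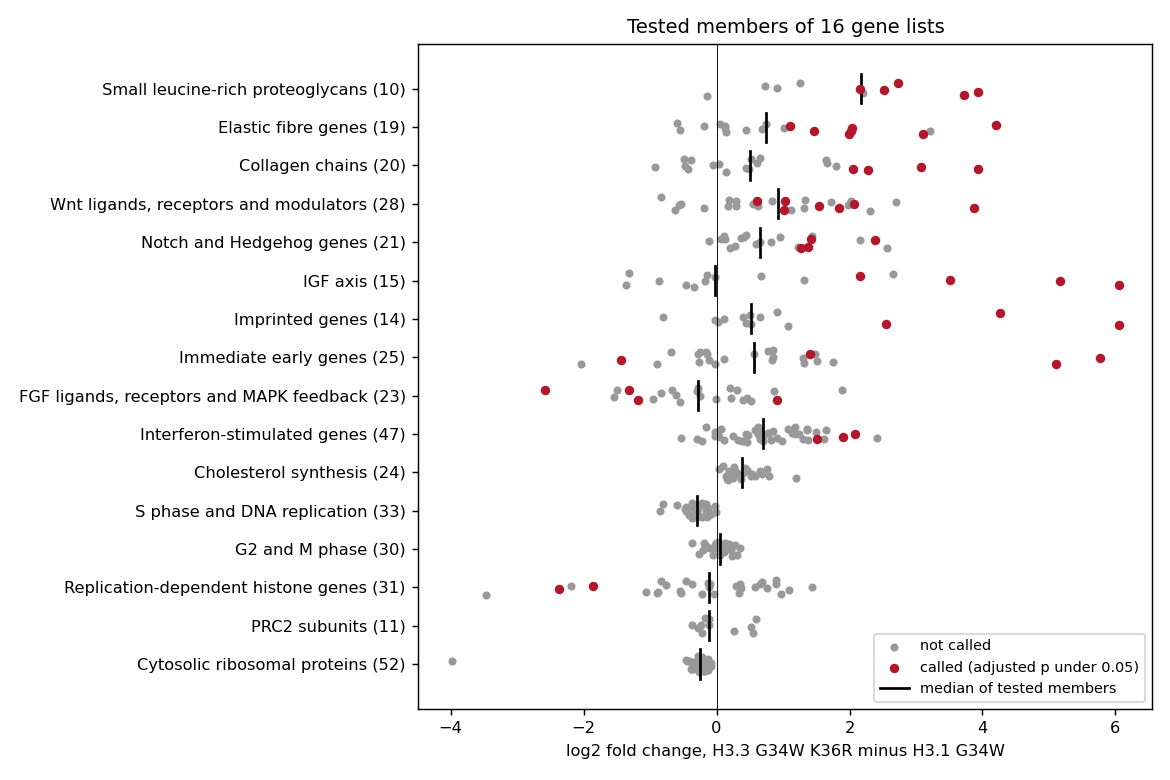
Points give the log2 fold change, K36R minus H3.1 G34W, of each tested member of 16 gene lists, red where called, and black bars give the median of each list. The number of tested members stands beside each name. Proteoglycan, elastic fibre, collagen and Wnt members called lie to the right of 0, and cell cycle, PRC2 and ribosomal lists hold no call.

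Genes of the machinery that writes and reads the residues at issue were not called, in lists of 11 to 19 genes set against 3.09% called of all genes, so that few calls or none would be the background level. None of 11 PRC2 subunit genes was called in limma (median -0.12), and the catalytic subunit gene Ezh2 was 2056 and 2214 with K36R, against 3562 and 2144 with H3.1 G34W. None of 19 PRC1 subunit genes and none of 16 enzymes that methylate or demethylate these lysines was called either. The K36 methyltransferase gene Nsd1 was 6553 and 6660.2 against 5379 and 5669.7, and Setd2, which encodes the enzyme of K36 trimethylation, was 5213 and 5382 against 5505 and 4134. None of 16 H3.3 and chaperone genes and none of 13 genes of DNA methylation passed the test. Nearest to the threshold was Tet1, which encodes a methylcytosine dioxygenase, at 114 and 96.1 against 13.5 and 55.4 (limma adjusted p = 0.0894). Cdkn2a and Cdkn2b, the tumour suppressor locus that PRC2 represses in many cells, were low in both groups. Cdkn2a was 27.4 and 25.6 against 13.5 and 9.24 (limma adjusted p = 0.0777) and Cdkn2b was 36.2 and 29.1 against 5.18 and 11.5 (limma adjusted p = 0.062), without overlap and without a call. Their neighbour Mtap, an enzyme of methionine salvage, was 15058 and 15104 against 8327 and 15721. Without H3.1 G34W replicate 2 the PRC1 list held 2 genes called higher and 2 lower, the cell cycle inhibitors 2 higher, the lysine methylation enzymes 1 higher, the H3.3 and chaperone genes 1 lower, and the DNA methylation genes 1 in each direction. Of the 45 lists with a tested member, 19 held no call, and p53 targets and oxidative phosphorylation were among them. Over all lists, which share some genes, 76 of 876 distinct tested members were called (8.68%, against 3.09% of all genes). The lists were chosen with earlier results known.

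Cell cycle and sterol genes separated the H3.1 G34W libraries from each other more than from K36R. For 33 genes of DNA replication the median difference of K36R was -0.96 from H3.1 G34W replicate 1 and 0.43 from replicate 2 on the log2 scale, and none was called. For 30 genes of G2 and M phase the 2 medians were -0.51 and 0.66, again without a call. The proliferation gene Mki67 was 18179 and 18781 in the K36R libraries, between 26339 and 9675 in replicates 1 and 2 of H3.1 G34W. The 24 genes of cholesterol synthesis went the opposite way, with medians of 0.90 from replicate 1 and -0.08 from replicate 2. Without replicate 2 of H3.1 G34W, 14 replication genes were called lower and 11 sterol genes higher with K36R, and without replicate 1 none of either was called. For 52 cytosolic ribosomal protein genes, 47 were lower in both K36R libraries than in both H3.1 G34W libraries, against 28.3% of all genes, and none was called. Their median log2 fold change was -0.25, and it was -0.24 after TMM rescaling and -0.19 after quantile normalization. How much of any called gene moves with the share of cycling cells was not tested, and in bulk RNA fewer cells of a kind cannot be told apart from less RNA per cell.

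**Figure D5:**
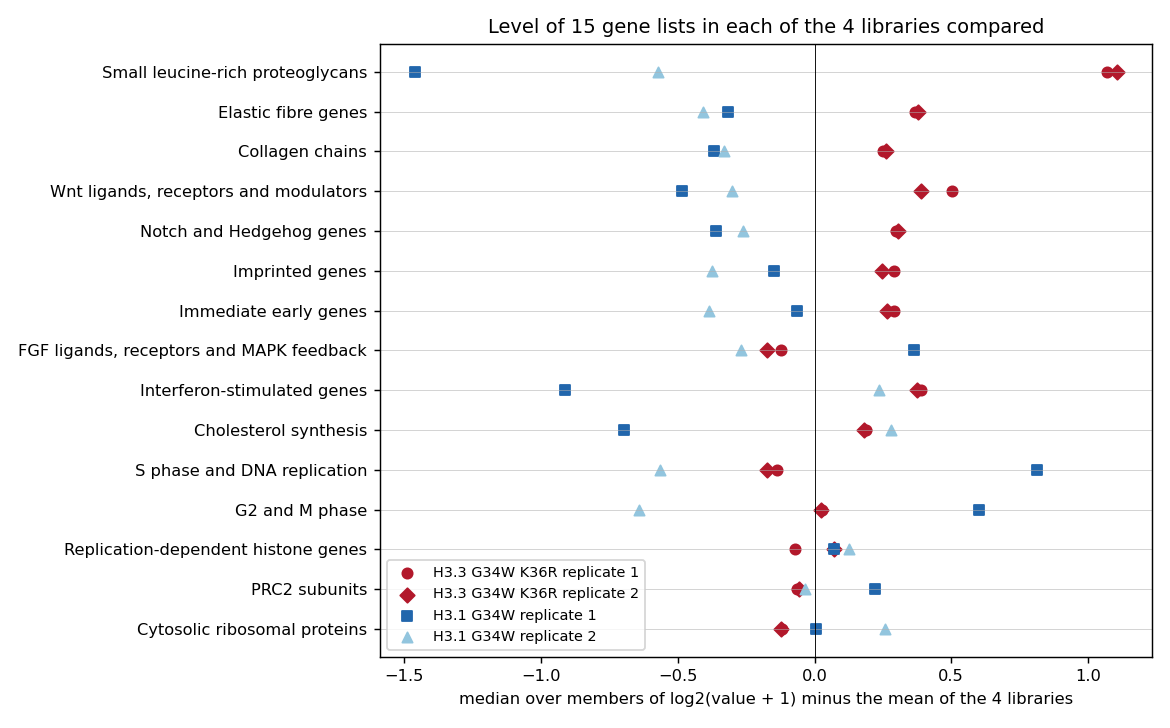
Points give, for each of the 4 libraries, the median over the tested members of a list of log2(value + 1) minus the mean of the 4 libraries. The K36R libraries nearly coincide in most of the 15 lists, and the H3.1 G34W libraries lie together on the other side for elastic fibre, collagen, Wnt and Notch genes. The H3.1 G34W libraries lie on opposite sides of K36R for S phase, G2 and M phase, cholesterol synthesis, and FGF and MAPK feedback.

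Set beside the other 14 libraries, most called genes were not extreme in either group. Of the 307 genes called higher, 49 were higher in both K36R libraries than in all other libraries, a pattern seen in 567 tested genes (4.64%), and 40 were lower in both H3.1 G34W libraries than in all others, seen in 136 (1.11%). Of the 71 called lower, 14 were lowest with K36R, seen in 606 (4.96%), and 8 were highest with H3.1 G34W, seen in 154 (1.26%). All 378 called genes lacked overlap between the 2 groups and so met a part of these patterns beforehand. The shares of all tested genes are therefore not a like background for them. Igf2, Fosb, Entpd3, Cacna1h and Adamts2 were among the 49, Stc1, Steap4, Bmp4, Klf2 and Il6 among the 40, and Atf3, Vtcn1 and Fam84b among the 8. Some called genes were neighbours in the genome. In the gene order of RefSeq (GRCm38.p6), into which 12155 of the tested genes could be placed, 30 pairs of adjacent tested genes were both called, of which 26 pairs rose, 1 fell and 3 went in opposite directions. The next tested gene after a called gene was called in 8.0% of cases (30 of 375), against 3.09% of all genes. The pairs included Col6a2 with Col6a1, Rgs5 with Rgs4, Begain with Dlk1, Slpi with Matn4, Lxn with Rarres1 and Tmem176b with Tmem176a. These examples were chosen after their values were seen, and reads from adjacent or overlapping genes can be shared.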

How the data were processed

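Per the submitters' processing notes, RSEM 1.2.4 and the mm9 build were used by the authors; the aligner and annotation are not given in the sources used here. The deposited values are a signal, namely estimated counts times 1 constant per library (a median normalization, per the file names). Values within 0.01 reads of a whole number made up 41.7% to 47.6% of those above 0, so no count model was used. Values were tested as log2(value + 1) in limma 3.58.1 (R 4.3.3, statmod 1.5.0), with eBayes trend and robust, two-sided, over all 8 groups. The 2 H3.3 wild-type libraries, which hardly differed, were averaged, leaving 15 samples and 7 residual degrees of freedom. Benjamini-Hochberg adjustment ran over the 12215 genes, with a threshold of 0.05. Depth was 26.02 to 49.12 M reads in all libraries. Floors and intervals cover counting error only.

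The comparison, its gene lists and the naming rule were chosen with earlier results of these data known. Named were the 12 largest changes each way among called genes that averaged 50 or more in either group and did not overlap, up to 5 called members of each list (if none, up to 2 with the smallest p, not all described here) and a set of fixed genes; provisional symbols were left out, and some genes are not reported here. A second deposited table repeats the values of 180 genes and was not used further. Alternatives were other pseudocounts, filters, scalings, variance moderation and sample sets, a block for the replicate number, and single libraries left out.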

Additional observations from a re-analysis of the deposited data

How the results depend on the processing

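Against 378 genes called, the count was 0 with the 2 compared groups alone, 0 with 5 close pairs each counted as 1 sample, 572 with the pair of H3.3 wild-type libraries as separate samples, and 63 to 1695 on leaving out 1 library at a time. The lowest counts came without K36R replicate 1 (63) or 2 (65), and the highest without H3.1 G34W replicate 2 (1695). Leaving out libraries of other groups also moved the count, to 228 without either H3.3 G34R library, 229 and 230 without those of H3.3 K27R, 243 without either of H3.3 G34W K27R, 1035 and 1029 without those of H3.3 G34W, and 558 and 563 without those of H3.1 wild type. The cause was not tested. Pseudocounts, filters, TMM rescaling, quantile normalization and plain eBayes gave 275 to 450 calls. In every fit the 378 genes that were tested kept their sign. Of 3818 comparisons of named genes with their alternatives, 3209 kept direction and side of the threshold, 548 lost the call, 61 gained one and 0 reversed; sign changes of genes called in neither fit, 15 in all, were counted as kept.

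Replicate numbers did not pair the samples: for 28 pairs of groups, replicate 1 minus replicate 2 correlated across genes at -0.291 to 0.0556, and it was 0.00516 for the groups compared. With the replicate number as a block, 478 genes were called, 376 of them among the 378. Depth limits genes near 3 reads, where a group at 0 gives only a bound.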

Other observations

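Genes of the interleukin 6 family, whose cytokines signal through the shared receptor gp130, JAK kinases and STAT3, stood among the calls. The list of 24 such genes was written after their values were seen, so its counts are a description. Of 23 tested, 7 were called higher with K36R and 0 lower, and the median log2 fold change was 0.65. Il31ra and Cntfr averaged under 10 with H3.1 G34W and passed the minimum level only through the K36R libraries. Of the receptors, Osmr, which binds oncostatin M, was 5468 and 5421 in the K36R libraries and 1364 and 1653 in those of H3.1 G34W (log2 fold change 1.86 ± 0.24 SE), and Il31ra was 31.3 and 25.6 against 5.18 and 0. The transcription factor gene Stat3 was 7741 and 7533 against 2386 and 3449, its feedback inhibitor Socs3 was 2107 and 2118 against 1094 and 1163, and Bcl3, a cofactor of NF-kB, was 128 and 102 against 3.11 and 26.2. Il6, given above, is also among the calls. The shared receptor gene Il6st was 15744 and 15919 against 10036 and 14751, and it was not called. Without H3.1 G34W replicate 1 or 2, 4 and 8 members were called higher, and without either K36R library 2 were called.

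Voltage-gated channel genes, more familiar from nerve and muscle, were a further group picked after its values were seen. Of 28 calcium and sodium channel subunit genes listed, 14 were tested, with 5 called higher and 0 lower (median 1.14 on the log2 scale). Cacna1d, Cacna1h, Scn4a and Scn8a averaged under 10 with H3.1 G34W and passed the minimum level only through the K36R libraries. The counts and the median therefore favour higher levels with K36R and are a description only. The T-type channel gene Cacna1g was 763 and 651 with K36R and 34.2 and 119 with H3.1 G34W, below all other H3.3 libraries in both groups, whereas its relative Cacna1h, given above, was highest with K36R. Scn4a, a sodium channel gene of skeletal muscle, was 29.3 and 27.3 against 0 in both H3.1 G34W libraries. The L-type channel gene Cacna1d was 19.6 and 13.6 against 2.76 and 4.74, close to the floor. Without H3.1 G34W replicate 1 or 2, 3 and 7 were called higher, and without either K36R library 2 were called.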
